A study of Homo sapiens with 10 samples.

Results

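The BCL2 family decides whether a cell opens its outer mitochondrial membrane and dies by apoptosis. Pro-survival proteins (BCL2, BCL-xL from BCL2L1, MCL1 and BFL1 from BCL2A1) hold the pore-forming effectors BAX and BAK1 in check, and the BH3-only proteins (PUMA from BBC3, NOXA from PMAIP1, BIM from BCL2L11, and BID) bind the pro-survival proteins, or the effectors, to release the block. Lung cancer cells commonly depend on MCL1 or BCL-xL, cytotoxic drugs act largely through this pathway, and BBC3, PMAIP1 and BAX are known to be induced by DNA damage. The 10 genes named here were taken by symbol from the deposited expression table, in which all 10 of 46427 genes were found, and they were followed through all 10 RNA sequencing libraries.

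The libraries came from H460 and A549, both established human lung cancer cell lines. Parental H460 cells grown in two-dimensional (2D) culture gave 3 libraries. H460 cells that survived 4 µM cisplatin (CR) gave 1 library, those that survived 5 nM paclitaxel (PR) gave 2, and those that survived 0.5 µM doxorubicin (DR) gave 1. Each drug was left on for 3 days, fresh medium followed for 3 days, and cells that attached after re-plating were collected on day 8, so CR, PR and DR are short-term survivors rather than selected clones. Tumor spheroid (TS) cultures, labelled CTC by the submitters, gave 1 library of H460 and 1 of A549, and 2D culture of A549 gave 1. TS cells were kept on coated plates in a B27 medium with growth factors, so the effects of suspension and of the medium cannot be told apart. No label says whether libraries of one group came from separate cultures, and p-values then measure only the spread between these samples, which may be technical.

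Between 59499787 and 89541774 reads per library were counted on genes, and the chi-square per gene between replicates was at least 62.85, so no pair agreed within sampling noise. The keratins KRT8 and KRT18 were high in both lines, at an FPKM (fragments normalized for transcript length and for mapped reads) of at least 190.4, whereas KRT19 was 138 to 738 in H460 but 3.57 in 2D and 68.3 in TS culture of A549. The epithelial adhesion genes EPCAM and CDH1 stayed at or below 0.114 in H460, and in A549 EPCAM was 0.923 and 1.04 and CDH1 9.29 and 11.9 in 2D and TS cells. Every one of 6 lung lineage markers was under an FPKM of 1 in all 10 libraries. Of 10 markers of leukocytes, fibroblasts and endothelium, 7 were also under 1 throughout, including PTPRC, PECAM1 and CDH5. The others were CD68, COL1A1 and PDGFRB, all higher in every drug-resistant than in every parental library. COL1A1 had an FPKM of 0.085 to 0.193 in parental and 0.783 to 6.51 in drug-resistant libraries, and PDGFRB 0.862 to 4.23 and 4.24 to 7.06. The summed FPKM of all 10 markers was 16.1 to 21.3 in parental and 43.0 to 63.3 in drug-resistant cells, most of it CD68, a lysosomal gene. The part of these markers in the results below was not tested. Bulk RNA cannot tell more RNA per cell from more cells that hold it.

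MCL1 was the most abundant family transcript in H460 cells and BCL2L1 in A549 cells. In parental H460 cells the mean FPKM fell in the order MCL1 (88.4), BAX (47.6), BID (14.6), BCL2L1 (11.9), BAK1 (9.04), PMAIP1 (5.04), BCL2 (3.35), BBC3 (2.35), BCL2L11 (2.08) and BCL2A1 (0). The ranges of BID and BCL2L1, of BCL2L1 and BAK1, of PMAIP1 and BCL2, and of BBC3 and BCL2L11 overlapped over the 3 libraries, and these neighbours are not ordered beyond their spread. In A549 2D cells the order was led by BCL2L1 (103), BAX (89.7) and MCL1 (37.9), followed by BID (18.1), BCL2A1 (12.1), BAK1 (8.73), PMAIP1 (4.16), BBC3 (4.05) and BCL2L11 (2.49), with BCL2 (0.399) last. BBC3 was eighth of the 10 in parental cells and sixth in drug-resistant cells, where its range overlapped that of PMAIP1 below it.

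**Figure D1:**
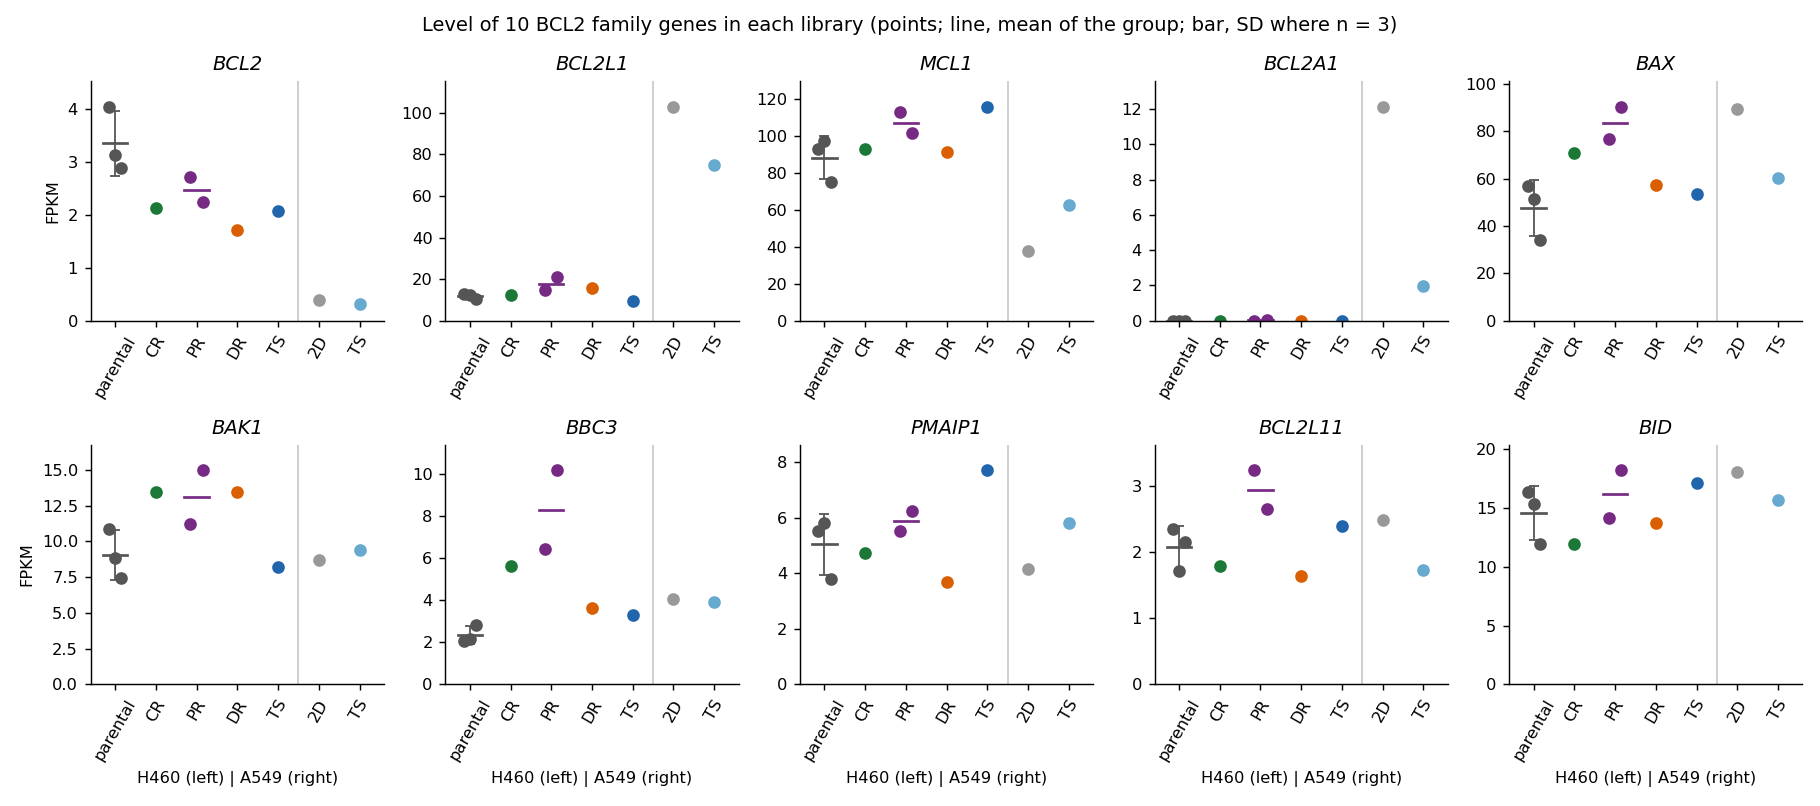
FPKM (vertical axes, from 0, scaled per gene) of the 10 family genes by group, with 1 point per library, a line at the mean of groups with replicates and SD bars for the 3 parental libraries. BBC3 is above every parental library in all 4 drug-resistant libraries and BCL2 is below, while BCL2L1 and BCL2A1 are far higher in the A549 libraries.

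The 4 pro-survival genes among the 10 differed between the cell lines more than in any treatment. BCL2L1 had an FPKM of 13.1, 12.2 and 10.5 in the parental H460 libraries, 12.3 in CR, 14.8 and 21.0 in PR, 15.8 in DR and 9.58 in H460 TS cells, against 103 in 2D and 75.1 in TS culture of A549. All 8 H460 libraries lay below both A549 libraries, and the A549 2D level was 8.64 times the parental mean. BCL2A1 was listed at 0 in 7 of 8 H460 libraries and at 3 reads in PR replicate 2, whereas 718 reads were counted in A549 2D cells and 129 in their TS culture. Against a floor of 3 counts in the shallowest parental library, BCL2A1 was at least 244-fold higher in CPM (counts scaled to the reads of the library) in A549 2D cells. BCL2 went the other way, with 0.399 in A549 2D against 2.88 to 4.03 in the parental libraries, which was 8.39-fold higher in H460, and its CPM with TMM scaling were 1.68 in A549 2D and 20.7 to 27.6 in parental cells. MCL1 was also higher in H460, at 75.3 to 97.2 against 37.9, or 2.34-fold. With a pseudocount of 1 on the log2 scale, 4 of the 10 genes were more than 2-fold apart between A549 2D and parental H460 cells, BCL2L1 and BCL2A1 higher and BCL2 and MCL1 lower in A549, beside 17.8% of the 13439 genes that reached an FPKM of 1 in 2 or more libraries. All 4 are the pro-survival members of the 10. BCL2L2, a pro-survival family gene outside the 10, did not share this contrast. Its FPKM was 11.6 to 12.7 in parental H460 and 7.80 in A549 2D cells, or 0.634 times the parental mean. In H460 TS cells it was 6.76, or 0.549 times that mean. The effectors and BH3-only genes differed less, from 0.824 times the parental mean for PMAIP1 to 1.88 times for BAX. A549 2D is 1 library, and this comparison has no test.

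Genes around these loci differed less on average between the lines. Within 1 Mb of BCL2L1 (chromosome 20, NCBI Gene 598, GRCh38.p14 chr20:31664452-31723963), the 13 expressed neighbours had a median difference of 0.26 in log2(FPKM + 1) between A549 2D and parental H460 cells, and the highest was 1.88, against 3.01 for BCL2L1 itself. Around BCL2A1 (NCBI Gene 597, chr15:79960892-79971196) the 8 expressed neighbours had a median of 0.88, against 3.72 for BCL2A1. Of these neighbours 4 were more than 2-fold higher, beside 17.8% of 13439 genes more than 2-fold apart in either direction. Around BCL2 (NCBI Gene 596, chr18:63123346-63320090) the median of 14 neighbours was -0.24 and the lowest -7.82, against -1.63 for BCL2. Around MCL1 (NCBI Gene 4170, chr1:150574558-150579610) the median of 53 neighbours was -0.29 and the lowest -2.82, against -1.19 for MCL1. The median over all genes was 0.0080.

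The make-up of the pro-survival mRNA pool showed the same contrast. MCL1 made up 84.5% to 86.4% of the summed FPKM of the 4 pro-survival genes in parental cells, 81.4% to 86.6% in drug-resistant cells and 90.9% in H460 TS cells. In A549 2D cells MCL1 made up 24.7% and BCL2L1 67.1%, and in A549 TS cells the shares were 44.8% and 53.6%. BCL2 never reached more than 3.67% of the pool, and its share was 2.78% to 3.67% in parental and 1.58% to 2.08% in drug-resistant libraries. The summed pool itself was 88.7 to 112 FPKM in parental and 107 to 130 in drug-resistant cells, ranges that overlapped.

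**Figure D2:**
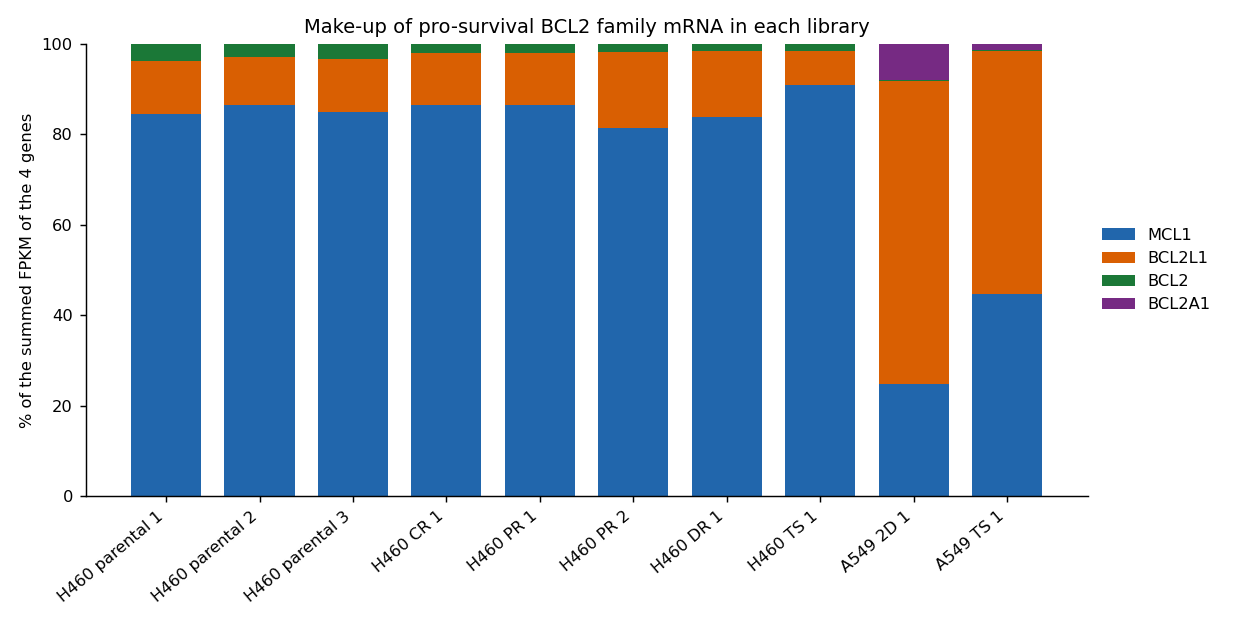
Percentage (vertical axis, 0 to 100) of the summed FPKM of MCL1, BCL2L1, BCL2 and BCL2A1 taken by each gene, with 1 bar per library. MCL1 holds at least 81.4% in every H460 library, and BCL2L1 holds the largest share in both A549 libraries.

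To see what drug-surviving cells had in common, the 4 drug-resistant libraries were compared with the 3 parental ones by edgeR's quasi-likelihood test on the counts, with Benjamini-Hochberg adjustment over all genes tested and a threshold of 0.05. BBC3 rose and BCL2 fell, and the other 7 tested members did not pass. That is 2 of 9 members called, beside 33.8% of 18398 genes called, of which 18.5% of all genes tested were higher and 15.3% lower in drug-resistant cells. BCL2A1 had too few reads to be tested. The median log2 fold change of the 9 members was 0.088, against 0.060 for all genes. With upper-quartile scaling the median over all genes moved to 0.23 and the calls split into 4210 higher and 2032 lower genes, against 3397 and 2823 with TMM scaling.

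BBC3 (NCBI Gene 27113, chr19:47220824-47232860, minus strand) encodes PUMA, a BH3-only protein that binds all pro-survival members. Its FPKM was 2.05, 2.17 and 2.82 in the parental libraries, 5.61 in CR, 6.44 and 10.2 in PR and 3.64 in DR cells. The groups did not overlap, PR replicate 2 was highest, and DR was closest to the parental cells. In CPM with TMM scaling, DR (6.43) and parental replicate 3 (6.37) were nearly equal, so the separation there rests on a small margin. The mean rose from 2.35 ± 0.417 (SD, n = 3) to 6.46 ± 2.73 (SD, n = 4), and the edgeR log2 fold change was 1.25 (SE 0.32, 95% interval 0.54 to 1.95, adjusted p = 0.0137). Without parental replicate 1 the adjusted p was 0.0588, and without parental replicate 2 it was 0.0608, while over all 15 alternatives it ran from 0.00073 to 0.0608. Library names take 2 written forms, which may mark a batch, and within them BBC3 was higher by 1.22 (1 drug-resistant and 2 parental libraries) and by 1.25 (3 and 1) in log2 CPM. The microRNA genes MIR3190 and MIR3191 lie inside BBC3, and their reads cannot be told apart from it here, since the counting is not stated to use strand.

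BCL2 encodes the founding pro-survival protein. Its FPKM was 4.03, 3.12 and 2.88 in parental libraries, 2.12 in CR, 2.71 and 2.23 in PR and 1.72 in DR cells. All 4 drug-resistant values lay below the lowest parental value, the nearest being PR replicate 1. The mean fell from 3.35 ± 0.609 (SD, n = 3) to 2.19 ± 0.407 (SD, n = 4), with an edgeR log2 fold change of -0.64 (SE 0.19, 95% interval -1.05 to -0.23, adjusted p = 0.0245). This call was lost with upper-quartile scaling (adjusted p = 0.0670), with limma on log2(FPKM + 1) (0.0602) and on log2(FPKM + 0.1) (0.0622), with the form of library name as a covariate (0.0631), and without parental replicate 1 (0.0786), PR replicate 2 (0.0698) or DR (0.0757), and it held in 8 of 15 alternatives, over which the adjusted p ran from 0.0106 to 0.0786. Within the 2 name forms, the difference in log2 CPM was -0.47 and -0.67.

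The effectors BAX and BAK1, which form the mitochondrial pore, were higher in FPKM in every drug-resistant library but did not pass the test on counts. BAX (NCBI Gene 581, chr19:48954875-48961798, plus strand) had an FPKM of 57.0, 51.4 and 34.3 in parental, 71.1 in CR, 76.8 and 90.5 in PR and 57.4 in DR cells. The highest parental and the DR values were almost equal. Its edgeR log2 fold change was 0.47 (SE 0.19, 95% interval 0.047 to 0.90, adjusted p = 0.0807). BAK1 (NCBI Gene 578, chr6:33572552-33580276, minus strand) had 10.9, 8.83 and 7.42 in parental, 13.5 in CR, 11.2 and 14.97 in PR and 13.5 in DR cells, with a log2 fold change of 0.44 (SE 0.19, 95% interval 0.026 to 0.86, adjusted p = 0.0930). After TMM scaling of the counts the groups overlapped for both genes. Both passed the threshold with upper-quartile scaling, with the FPKM filter and with limma on FPKM, where the adjusted p of BAX was 0.0201 to 0.0458 and that of BAK1 0.0215 to 0.0416. Over all 15 alternatives the highest adjusted p was 0.229 for BAX and 0.238 for BAK1. BAK1 shares sequence with the pseudogene BAK1P1, which held 85 to 243 reads, or 5.96% to 9.31% of the BAK1 count, so the BAK1 values are uncertain to that extent. In all, 4 of the 9 tested members had FPKM values that did not overlap between the groups (BCL2, BAX, BAK1 and BBC3), beside 39.5% of the 18398 genes tested.

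The ratio of BAX to BCL2 does not depend on how libraries are scaled. It was 14.1, 16.5 and 11.9 in the parental libraries, 33.5 in CR, 28.4 and 40.5 in PR and 33.4 in DR cells. The 4 drug-resistant ratios all exceeded the 3 parental ones, with means of 34.0 ± 4.96 (SD, n = 4) and 14.2 ± 2.28 (SD, n = 3). The ratio was 25.9 in H460 TS cells, 225 in A549 2D cells and 192 in A549 TS cells. The ratio was chosen after the values were seen, and no test was made of it.

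The other 5 tested members did not pass, and their groups overlapped. MCL1, a short-lived pro-survival protein, had an FPKM of 75.3 to 97.2 in parental and 91.2 to 113 in drug-resistant libraries, and its log2 fold change was 0.058 (95% interval -0.33 to 0.44). BCL2L1 differed by 0.29 (-0.12 to 0.70), and it exceeded the highest parental FPKM (13.1) in both PR libraries and in DR but not in CR cells. PMAIP1, which encodes NOXA, an antagonist of MCL1, had 5.52, 5.81 and 3.79 in parental, 4.74 in CR, 5.53 and 6.23 in PR and 3.69 in DR cells, and its log2 fold change was -0.0081 (-0.47 to 0.45). BCL2L11, which encodes BIM, differed by 0.088 (-0.45 to 0.62), with both PR libraries (3.24 and 2.66) above the parental maximum of 2.36 and CR and DR within or below the parental range, and BID, which links death receptors to mitochondria, by -0.13 (-0.51 to 0.25). In CPM with TMM scaling, not both PR libraries exceeded the parental maximum for BCL2L1 or BCL2L11. BCL2L1 was 39.9 in PR replicate 1, against a parental maximum of 40.4. BCL2L11 was 12.9 in PR replicate 2, against 13.6. All 5 intervals included 0, and their bounds lay between -0.51 (BID) and 0.70 (BCL2L1).

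**Figure D3:**
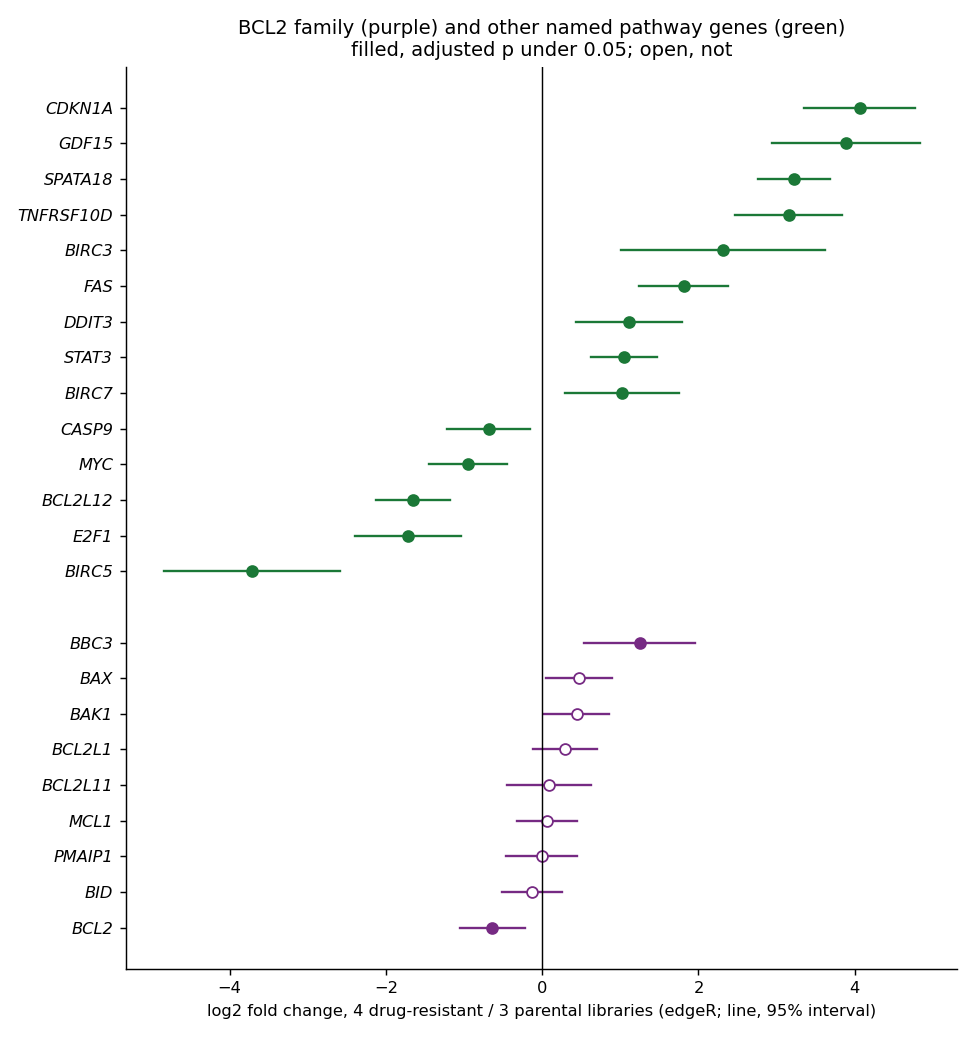
Log2 fold change (horizontal axis) of the 9 tested family genes and of the other pathway genes named in the text with reads in parental cells, between 4 drug-resistant and 3 parental H460 libraries, from edgeR, with 95% intervals and filled points for an adjusted p under 0.05. BBC3 and BCL2 are the filled family genes, and the other pathway genes, which were chosen for passing the test, reach from -3.71 (BIRC5) to 4.06 (CDKN1A).

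Promoters are shown for the 4 members whose FPKM did not overlap between the groups, as the 250 bases before the transcription start in RefSeq (GRCh38.p14), read 5′ to 3′ on the gene's strand. The start used for BCL2 and BBC3 lies inside the span RefSeq gives for the whole gene, so their windows overlap that span, whereas those of BAX and BAK1 end where the gene begins. Capitals mark CCAAT boxes on either strand (CCAAT or ATTGG).
BBC3, chr19:47232668-47232917, minus strand: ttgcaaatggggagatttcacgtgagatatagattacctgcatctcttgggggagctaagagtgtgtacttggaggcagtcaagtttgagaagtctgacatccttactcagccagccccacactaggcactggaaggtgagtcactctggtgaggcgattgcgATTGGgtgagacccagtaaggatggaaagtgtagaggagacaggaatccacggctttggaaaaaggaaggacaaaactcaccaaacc
BCL2, chr18:63319770-63320019, minus strand: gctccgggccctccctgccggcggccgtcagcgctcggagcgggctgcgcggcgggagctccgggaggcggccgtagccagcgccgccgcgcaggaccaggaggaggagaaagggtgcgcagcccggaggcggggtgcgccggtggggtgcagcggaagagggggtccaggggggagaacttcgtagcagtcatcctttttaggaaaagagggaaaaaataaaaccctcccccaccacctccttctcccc
BAX, chr19:48954625-48954874, plus strand: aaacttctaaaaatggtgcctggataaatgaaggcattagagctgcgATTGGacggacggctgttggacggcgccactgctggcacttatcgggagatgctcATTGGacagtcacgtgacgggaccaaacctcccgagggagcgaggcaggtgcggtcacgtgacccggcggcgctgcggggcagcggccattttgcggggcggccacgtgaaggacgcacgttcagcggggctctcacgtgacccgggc
BAK1, chr6:33580277-33580526, minus strand: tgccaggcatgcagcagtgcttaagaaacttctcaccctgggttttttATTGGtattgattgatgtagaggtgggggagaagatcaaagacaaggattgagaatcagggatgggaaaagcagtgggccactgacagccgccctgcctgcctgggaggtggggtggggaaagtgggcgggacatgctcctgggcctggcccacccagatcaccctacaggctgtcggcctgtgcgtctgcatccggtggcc

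The CCAAT box lay 87 bases before the start of BBC3, 203 and 148 bases before that of BAX and 202 bases before that of BAK1, and the BCL2 window held none. Over the 14 promoter windows of 300 bases listed for members, 250 before and 50 after the start, 4 held a CCAAT box (BAK1, BAX, BBC3 and BCL2L11), beside 34.6% of all 35116 windows of that length. GGGCGG, the core of the GC box, on either strand was held by 9 of the 14 windows, from 6 genes (BAK1, BAX, BCL2L1, BCL2L11, BID and PMAIP1), beside 45.0% of all windows. TATAAA on either strand was held by 2 of the 14 windows, of BCL2A1 and BCL2L1, beside 11.5% of all windows. The BCL2 stretch printed was 70.0% G and C, against 49.2% for BBC3. MCL1 had no entry in the promoter table.

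Other genes of the pathway moved in several directions in drug-resistant cells. Of 20 genes outside the family listed as p53 targets, 19 rose, none fell and TRIAP1 did not pass (edgeR adjusted p = 0.0710), beside 18.5% called higher over all genes. Their median log2 fold change was 1.77, against 0.060 for all genes, and what induced them was not tested. CDKN1A, which encodes the cell cycle inhibitor p21, rose from an FPKM of 20.7 to 33.0 in parental to 343 to 654 in drug-resistant libraries (edgeR log2 fold change 4.06, SE 0.32, adjusted p = 0.000102). GDF15, a secreted stress cytokine, rose from 13.8 to 34.1 to 233 to 643, and SPATA18, a factor in mitochondrial quality control, from 0.756 to 1.05 to 8.29 to 10.8. Within the family, the values of the damage-induced genes BBC3, BAX and PMAIP1 were 1.25, 0.47 and -0.0081 on the same log2 scale, of which only that of BBC3 passed. All 10 proliferation markers fell in the same comparison, with a summed FPKM of 525 to 816 in parental and 114 to 206 in drug-resistant libraries, and the part of that in the family's values was not tested.

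Of the 10 genes of the death receptor pathway, 5 rose and none fell, beside 18.5% called higher and 15.3% called lower over all genes. FAS, a death receptor that activates caspase-8 and through it BID, rose from an FPKM of 2.04 to 3.76 to 8.56 to 14.8 (log2 fold change 1.81, SE 0.26, adjusted p = 0.000804). TNFRSF10D, a decoy receptor for TRAIL, rose from 1.81 to 2.18 to 11.6 to 28.5 (3.16, SE 0.31). TNFRSF10C, another decoy receptor, was listed at 0 in all parental libraries and at no more than 0.175 in drug-resistant ones. The FAS counts may include reads of ACTA2, which overlaps it.

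Counts of genes that act downstream of the mitochondria stand beside 33.8% called over all genes (18.5% higher and 15.3% lower), and nothing is read from them about these groups. Of 9 caspase and apoptosome genes, 3 fell and none rose, among them CASP9, the initiator caspase of the apoptosome, from an FPKM of 5.58 to 8.68 to 3.17 to 5.26 (log2 fold change -0.69, SE 0.24, adjusted p = 0.0469). Of 7 genes for released mitochondrial factors and VDAC channels, 2 fell and none rose. Of 7 inhibitors of apoptosis, 2 rose and 1 fell. BIRC5 (survivin), which also acts in cell division, fell from 29.2 to 59.1 to 1.49 to 8.30 (-3.71, SE 0.51, adjusted p = 0.000660). BIRC3 rose (2.31, SE 0.59, adjusted p = 0.0138), with 8.22 on average in PR, 1.14 in CR and 2.38 in DR cells, and BIRC7 rose by 1.02 (SE 0.33, adjusted p = 0.0356).

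Of 13 other family genes, 10 could be tested, 1 rose and 2 fell, beside 33.8% called over all genes, among them BCL2L12, from an FPKM of 6.48 to 11.7 in parental to 2.86 to 3.77 in drug-resistant libraries (log2 fold change -1.65, SE 0.21, adjusted p = 0.000495). BCL2L12 overlaps IRF3 and its reads are uncertain to that extent. Of 18 regulators of family members, 3 rose and 3 fell, beside the same 33.8%. STAT3, a transcription factor that drives MCL1 and BCL2L1, rose by 1.04 (SE 0.19, adjusted p = 0.00274). DDIT3 (CHOP), a stress factor that acts on BCL2 and BCL2L11, rose by 1.11 (SE 0.31, adjusted p = 0.0190). DDIT3 overlaps MARS1 and its reads are uncertain to that extent. E2F1 fell by 1.72 (SE 0.31, adjusted p = 0.00252) and MYC fell by 0.95 (SE 0.23, adjusted p = 0.00972) on that scale.

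PR cells, the one drug group with 2 libraries, were also compared alone with the parental cells by edgeR, sharing those controls. BBC3 was the single member called of 9 tested, beside 28.1% of 19430 genes. Its log2 fold change was 1.49 (SE 0.32, 95% interval 0.78 to 2.20, adjusted p = 0.00888), and without PR replicate 2 the adjusted p was 0.129, the highest of 14 alternatives, of which 13 kept the call. Leaving out a PR library leaves 1 in that group, which is then assumed to vary like the parental libraries. BCL2 differed by -0.62 (adjusted p = 0.101), BAX by 0.49 (adjusted p = 0.172) and BAK1 by 0.29 (adjusted p = 0.411) in PR cells, and none of these passed.

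CR and DR cells had 1 library each and no test. On the log2(FPKM + 1) scale, none of the 10 members was more than 2-fold from the parental mean in CR cells, beside 12.1% of 13439 genes, and none in DR cells, beside 10.8%. The count in CR cells depends on the pseudocount, since BBC3 had a difference of 0.99 there, was 2.39 times the parental mean in FPKM, and was past 2-fold with a pseudocount of 0.1. In DR cells BCL2 came nearest, at -0.67, and BBC3 differed by 0.48, against 1.45 in PR cells. BAK1 differed by 0.54, 0.49 and 0.54 in CR, PR and DR cells, the most even of the values, whereas BAX differed by 0.60, 0.83 and 0.30. In FPKM, PMAIP1, BCL2L11 and BID were each below the parental mean in CR and DR cells and above it in PR cells. For BID the direction in PR cells depended on the scaling. Its CPM with TMM scaling were 32.6 and 39.2 in PR, against 43.6, 38.4 and 33.0 in parental libraries. Its fitted log2 fold change in PR cells ran from -0.24 to 0.16 over 14 alternatives.

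Paclitaxel, which stabilizes microtubules, was compared with cisplatin and doxorubicin, which damage DNA, by a contrast of the PR with the CR and DR libraries. No member was called of 9 tested, beside 0.0% of 19770 genes. Without adjustment, 2479 genes had a p under 0.05, and DESeq2 called 420 genes, none of them a member. The largest differences among members were 0.61 for BBC3 (95% interval -0.20 to 1.43, adjusted p = 0.516) and 0.55 for BCL2L11 (-0.057 to 1.15, adjusted p = 0.442). Both intervals reached past 2-fold higher in PR cells on their upper side and included 0.

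In TS cells, no member passed the edgeR test over both lines with the line as a covariate (0 of 10 tested), beside 0.191% of 18372 genes. Without adjustment 1363 genes had a p under 0.05, among them 3 members, and DESeq2 called 537 genes, none of them a member. PMAIP1 had the largest positive value. Its FPKM was 7.70 in H460 TS cells against 3.79 to 5.81 in the parental libraries, and 5.82 in A549 TS cells against 4.16 in 2D cells, and the log2 fold change was 0.71 (SE 0.25, adjusted p = 0.495). MCL1, the protein that NOXA binds, had 116 against 75.3 to 97.2 in H460 and 62.8 against 37.9 in A549 cells (0.56, SE 0.23, adjusted p = 0.626). For both genes the TS library lay above every 2D library of its own line. BCL2L1 lay below in both lines, at 9.58 against 10.5 to 13.1 in H460 and 75.1 against 103 in A549 cells (-0.35, SE 0.21, adjusted p = 0.936). BCL2 did so as well, at 2.08 against 2.88 to 4.03 and at 0.316 against 0.399 (-0.45, SE 0.28, adjusted p = 0.962). A549 has 1 TS and 1 2D library, which cannot overlap. How many of all genes lay above or below in both lines was not counted, so nothing is read from these positions.

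None of the 10 members was more than 2-fold apart in H460 TS cells, beside 3.3% of 13439 genes, and 1 was in A549 TS cells, beside 7.22%. That member was BCL2A1, at an FPKM of 12.1 in A549 2D and 2.00 in TS cells, from 718 and 129 reads. Its fitted log2 fold change of -2.47 (SE 0.79, adjusted p = 0.595) comes from A549 alone, since all its H460 libraries in the fit were at 0. BAX went from 89.7 to 60.5 in A549 TS cells and was 53.7 in H460 TS cells, within the parental range. No gene of the 7 pathway lists passed the TS test, nor did any of the 10 proliferation markers.

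**Figure D4:**
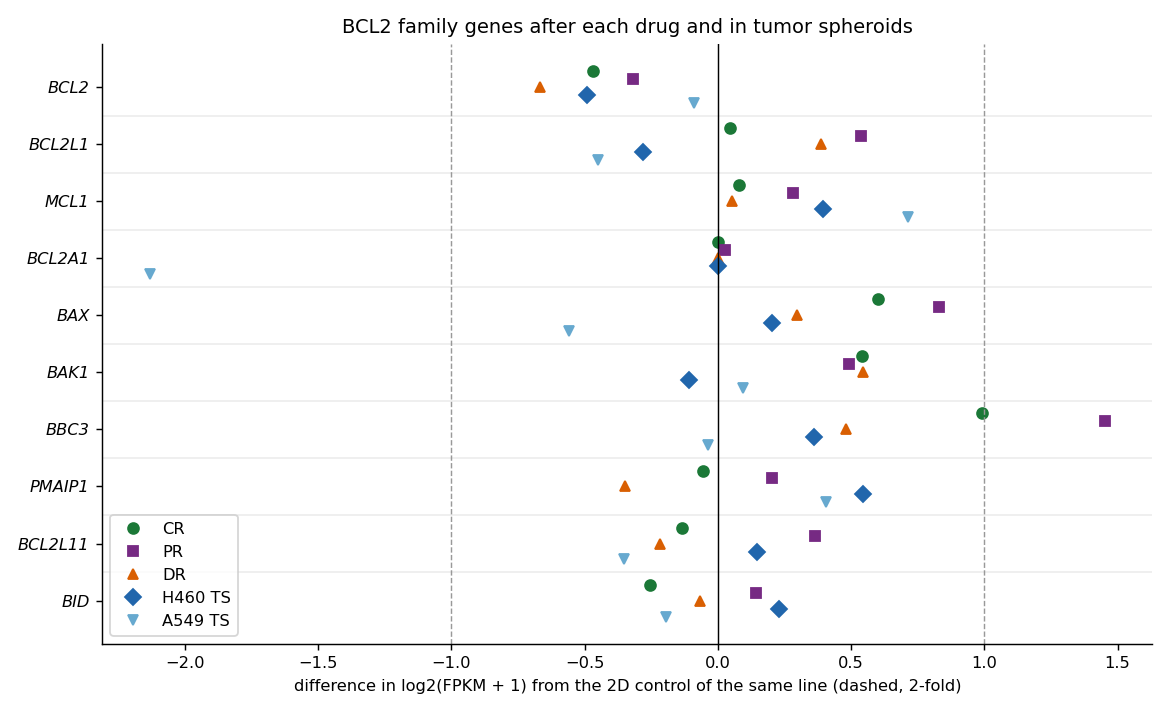
Difference in log2(FPKM + 1) (horizontal axis, dashed lines at 2-fold) of each family gene from the 2D cells of the same line, in CR, PR (mean of 2 libraries), DR, H460 TS and A549 TS cells. BBC3 in PR cells and BCL2A1 in A549 TS cells lie beyond 2-fold, and MCL1 and PMAIP1 are positive in both TS cultures.

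The genes whose log2(FPKM + 1) ran most like that of a member over the 10 libraries were listed by Pearson's r, as a description among 11935 genes that reached an FPKM of 1 in 5 or more libraries. The 10 points share cell line and library, and likeness within 1 line was not computed. They were ZNF718 (r = 0.984) and CDH7 (0.974) for BCL2, FHL2 (0.990) and TPM2 (0.990) for BCL2L1, SPP1 (0.963) and GDA (0.954) for MCL1, and ELP2 (0.978) and PDXK (0.976) for BCL2A1. For the other members they were NLK (0.943) and MOK (0.936) for BAX, GOSR2 (0.975) and ATP6V0E1 (0.965) for BAK1, DUSP10 (0.946) and RABL2A (0.943) for BBC3, CSNK1G2 (0.914) and ING2 (0.883) for PMAIP1, TLK1 (0.915) and KDM6A (0.914) for BCL2L11, and MIR6869 (0.895) and R3HCC1L (0.883) for BID.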

How the data were processed

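Poly(A) RNA of H460 and A549 cells was sequenced by the authors on HiSeq instruments. Per the labels' processing notes, bcl2fastq 1.8.4, Trimmomatic, HISAT2 2.1.0, StringTie 2.1.3b and the build GRCh38 were used. The authors deposited 1 table with a whole-number read count, an FPKM and a TPM per gene and library. FPKM is normalized by the authors for transcript length and library size, and the deposited TPM was not used here. Counts and FPKM were not proportional over libraries, and how shared reads were counted is not given in the sources used here. Among members, BCL2 overlaps LOC124904379, BCL2L1 overlaps LOC124904883 and BCL2L1-AS1, and BID overlaps MIR3198-1. Their reads are uncertain to that extent.

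Counts were tested with edgeR 4.0.16 in R 4.3.3 (filterByExpr with a minimum count of 10, TMM, glmQLFTest), with Benjamini-Hochberg adjustment over all genes tested, after a check on simulated counts. The standard error is the log2 fold change over the square root of F. Alternatives were other scalings and filters, DESeq2 1.42.0, limma 3.58.1 with 2 pseudocounts, a name-form covariate, a replicate block and each library left out. Differences with 1 library used log2(FPKM + 1), which understates the change of low genes. Drugs were taken as samples of drug-resistant cells, so the spread includes differences between drugs. In the fits of H460 libraries alone, only BCL2A1 failed the filter, and whether depth limited it was not tested. Floors cover counting error only.

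The members, the 7 pathway lists and the tests were chosen with earlier results of these data known. Named were all members and, per list, up to 3 genes in each direction that passed in drug-resistant cells and did not overlap in FPKM, by size. Named outside that rule, after the values were seen, were TRIAP1, BCL2L2 and the markers in the opening. Results that need 1 withheld item are not reported here. Positions and promoters were taken from RefSeq (GRCh38.p14), since chromosome coordinates agree between patches of that build. Promoters were matched by symbol for 9 of 10 members.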

Additional observations from a re-analysis of the deposited data

Results flagged for a closer look

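In FPKM, the TS libraries of the 2 lines moved in opposite directions for 3 members, the H460 TS value lying outside the range of its 3 parental libraries. BBC3 had an FPKM of 3.27 in H460 TS cells, above the parental 2.05 to 2.82, and 3.91 in A549 TS against 4.05 in 2D cells, so that the difference in log2(FPKM + 1) in H460 exceeded that in A549 by 0.40. BCL2L11 had 2.39 against 1.72 to 2.36 in H460, and 1.74 against 2.49 in A549 cells, a gap of 0.50. BID had 17.1 against 12.0 to 16.4 in H460 and 15.7 against 18.1 in A549 cells, a gap of 0.42. In CPM with TMM scaling, only BID met this rule. There BBC3 in H460 TS cells (5.71) lay within the parental 3.97 to 6.37, and it rose in A549 from 6.72 to 7.85. BCL2L11 in H460 TS cells (13.1) lay within the parental 9.33 to 13.6. The difference between the lines was not tested, each line has 1 TS library, and the BCL2L11 value in FPKM exceeded the parental range by a small margin. The share of all genes that meet the same rule was not counted, so nothing is read from these 3 members. Among the 9 members with an FPKM of 1 or more in a drug-resistant library, none had a drug-resistant library that stood apart from the other 3 by Dixon's criterion for 4 samples, a check that chance alone passes in about 1 in 20 groups. BCL2A1 was not checked, and its one value above 0 in drug-resistant cells, an FPKM of 0.036 in PR replicate 2, came from 3 reads.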

How the results depend on the processing

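With 4 drug-resistant and 3 parental libraries the number of members called was 2, 4 with the FPKM filter, 1 with the name form as covariate, and 0 to 2 when 1 library was left out, with 0 without parental replicate 1. In that comparison PMAIP1 turned positive, at 0.18 with upper-quartile scaling, 0.10 with the FPKM filter, 0.00096 with limma at either pseudocount and 0.019 with the name form, and BID turned to 0.056 with upper-quartile scaling. With 1 library left out, MCL1 ran from -0.042 to 0.089, PMAIP1 from -0.15 to 0.11 and BCL2L11 from -0.078 to 0.21. For PR cells the members called were 1, 2 with upper-quartile scaling and 0 to 1 with 1 library left out, while the genes called were 5455, 2742 with the FPKM filter, 3026 and 2773 with limma at pseudocounts of 1 and 0.1, and 950 to 6661 with 1 library left out, the lowest without PR replicate 2, where the lone PR library is assumed to vary like the parental ones. There BID turned to 0.16 with upper-quartile scaling, 0.086 with the FPKM filter and 0.14 and 0.15 with limma, and ran from -0.24 to 0.047 with 1 library left out, as MCL1 did from -0.065 to 0.16. Replicates 1 and 2 of PR and parental cells share only a number (r = 0.156 between their deviations, 2 pairs), and with the replicate block 6775 genes and 1 member were called, against 6661 and 1 without it for the same 4 libraries, with MCL1 at -0.016 and -0.012. The contrast of PR with CR and DR called 0 genes with TMM, 509 with no filter, 420 with DESeq2, 101 and 15 with limma, 48 with the drug-resistant libraries alone and 0 to 66 with 1 library left out, but 0 members in each. Left-out libraries there moved BCL2 from -0.11 to 0.25, BCL2L1 from -0.070 to 0.38, MCL1 from -0.078 to 0.14, BAX from -0.076 to 0.24 and BID from -0.027 to 0.27. The TS test called 35 genes, 19 with the FPKM filter, 537 with DESeq2, 19 with limma at 0.1 and 6 to 35 with a parental library left out, with 0 members in each, and BAK1 turned to 0.0074 with the FPKM filter and ran from -0.043 to 0.087. Leaving out the lone TS or A549 libraries was not run. In CR cells 1 member, not 0, was more than 2-fold apart with a pseudocount of 0.1 and with each of the 3 parental libraries alone as control. That member was not the same each time. Against parental replicate 3 alone it was BAX, at an FPKM of 71.1 against 34.3, while BBC3 had 5.61 against 2.82. In the other cases it was BBC3. The cause of these changes was not tested. Counting each result under each alternative, 536 values kept direction and side of the threshold, 33 changed sign, 10 lost and 9 gained a call, and 29 counts moved by over 1.5 times. BCL2A1 had 0 reads in 7 of 8 H460 libraries, and it alone failed the filters in the comparisons within H460 cells.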
